A study of Mus musculus with 27 samples.

Results

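The 31 genes described here code for the enzymes of sterol synthesis, the SREBP factors that switch them on, the main enzymes of fatty acid synthesis, and transporters that carry sterol out of the cell. They were taken by symbol as a fixed list that was chosen with earlier results of these data known. All 31 were found in each of the 3 deposited count tables, of 46078 genes in 2 tables and 22906 in the other. Sterols are built from acetyl-CoA through mevalonate, farnesyl diphosphate, squalene and lanosterol. When sterol in the endoplasmic reticulum is low, SCAP carries SREBP to the Golgi, where it is cut, and the freed part enters the nucleus and activates the genes of this route. When sterol is plentiful, INSIG proteins hold SCAP back, and oxidised sterols activate the LXR receptors, which switch on sterol exporters. Dividing T cells and their precursors need this route for new membrane.

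The study measured messenger RNA by sequencing in mouse models of TAL1, a transcription factor active in many T cell leukaemias, and of AKT(E17K), a mutant of the growth kinase AKT1 that is active without its usual signal. Thymus came from C57BL/6 mice that had received transplanted bone marrow, in groups that the labels give as TAL1 overexpression, empty vector, constitutive expression of TAL1 and AKT(E17K), and AKT(E17K) alone, with 3 mice each. The ProT cells were a cell line with CreER and LoxP for inducing TAL1, with 3 libraries at each of 0, 6, 12, 18 and 24 h of 4-hydroxytamoxifen. These were 27 libraries in 9 groups, and there were no later ProT libraries without 4-hydroxytamoxifen, so time in culture, the drug and TAL1 cannot be told apart there. The vector and promoter of the mice, their ages and whether the 3 ProT libraries of a time were separate cultures were not stated, so ProT p-values measure a spread that may be technical.

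Counts assigned to genes ranged from 2073752 to 11302098 per library, and levels are given as CPM, a gene's count scaled to the library's total over the genes tested times its TMM factor, so a gene at a few CPM rested on few reads in the shallowest libraries. Reads on the mouse Tal1 gene did not follow the labels. Tal1 was at 0 CPM in every mouse labelled TAL1, with or without AKT(E17K), at 0 CPM in every empty-vector mouse and at 2.24, 0 and 0 CPM in AKT(E17K) mice, and in ProT cells it was at 2895, 3028 and 3098 CPM at 0 h, 3033, 3608 and 3045 CPM at 6 h and 2068, 2026 and 1963 CPM at 24 h. Groups are therefore named as the labels name them. Thymocyte markers were present in all thymus libraries (summed level of 14 genes 7020 to 18380 CPM). In ProT cells the same 14 genes summed to 930.5 to 1107 CPM, while Cd4, Cd8a and Cd8b1 were at or below 0.46 CPM. Early T precursor markers summed to 742.5 to 1751 CPM in ProT cells, and Il2ra among them ranged from 281 to 1136 CPM. NK cell markers summed to 481.7 to 1205 CPM in ProT cells, against 35.3 to 154.7 CPM in the thymus. Some mice stood apart. AKT(E17K) mouse m121 had adipocyte markers at 199.2 CPM (7 of 7 genes with counts, against 1.29 to 4.74 CPM in the other AKT(E17K) mice), fibroblast markers at 447 CPM and myeloid markers at 939.7 CPM. Mouse m117, labelled TAL1 with AKT(E17K), had early T precursor markers at 2613 CPM, against 1312 and 1048 CPM in its group, and TAL1 mouse M318 had raised myeloid markers, given with its results below.

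Promoter sequences of 6 members are printed because the results below turn on these genes, which were chosen after their values were seen: Hmgcs1, Mvd, Cyp51 and Nsdhl among the enzymes, Insig1 among the regulators, and Abca1 among the exporters. Each window runs 5′ to 3′ from 250 bases before to 50 bases after the RefSeq start site (build GRCm38.p6), and capitals mark CACNCCAC (the core of the sterol regulatory element that SREBP binds), CCAAT (the letters NF-Y binds) and CACGTG (an E-box), on either strand. The windows lie at chr13:119690101-119690400, plus strand for Hmgcs1, chr8:122443373-122443672, minus strand for Mvd, chr5:4104648-4104947, minus strand for Cyp51, chrX:72918271-72918570, plus strand for Nsdhl, chr5:28071162-28071461, plus strand for Insig1 and chr4:53159846-53160145, minus strand for Abca1.
Hmgcs1: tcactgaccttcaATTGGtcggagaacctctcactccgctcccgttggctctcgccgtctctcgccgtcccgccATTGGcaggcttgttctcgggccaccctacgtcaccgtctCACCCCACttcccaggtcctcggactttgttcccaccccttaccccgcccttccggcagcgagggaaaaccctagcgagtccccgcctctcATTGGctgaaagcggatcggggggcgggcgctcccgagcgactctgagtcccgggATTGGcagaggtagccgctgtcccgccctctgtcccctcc
Mvd: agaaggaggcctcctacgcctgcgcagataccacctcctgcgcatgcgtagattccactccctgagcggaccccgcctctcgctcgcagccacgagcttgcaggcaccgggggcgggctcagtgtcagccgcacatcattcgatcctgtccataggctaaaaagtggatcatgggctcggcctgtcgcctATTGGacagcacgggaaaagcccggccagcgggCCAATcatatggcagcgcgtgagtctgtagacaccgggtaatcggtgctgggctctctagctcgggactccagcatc
Cyp51: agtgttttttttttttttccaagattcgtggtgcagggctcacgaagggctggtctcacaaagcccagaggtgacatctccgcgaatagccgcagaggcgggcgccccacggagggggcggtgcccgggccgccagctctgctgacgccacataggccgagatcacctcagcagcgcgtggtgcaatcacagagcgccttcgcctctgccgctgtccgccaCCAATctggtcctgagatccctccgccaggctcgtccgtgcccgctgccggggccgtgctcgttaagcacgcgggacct
Nsdhl: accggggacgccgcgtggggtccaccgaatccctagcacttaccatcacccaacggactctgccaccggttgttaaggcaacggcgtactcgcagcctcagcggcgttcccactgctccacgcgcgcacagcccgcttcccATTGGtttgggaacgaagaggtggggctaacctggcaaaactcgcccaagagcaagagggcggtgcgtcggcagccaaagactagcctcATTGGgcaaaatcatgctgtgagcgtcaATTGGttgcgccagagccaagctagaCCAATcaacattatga
Insig1: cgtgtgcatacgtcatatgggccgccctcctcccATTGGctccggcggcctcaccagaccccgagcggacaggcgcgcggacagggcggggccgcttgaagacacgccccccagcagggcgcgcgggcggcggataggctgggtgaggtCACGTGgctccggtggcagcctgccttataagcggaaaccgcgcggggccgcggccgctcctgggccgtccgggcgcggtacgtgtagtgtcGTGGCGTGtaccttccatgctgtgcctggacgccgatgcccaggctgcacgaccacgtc
Abca1: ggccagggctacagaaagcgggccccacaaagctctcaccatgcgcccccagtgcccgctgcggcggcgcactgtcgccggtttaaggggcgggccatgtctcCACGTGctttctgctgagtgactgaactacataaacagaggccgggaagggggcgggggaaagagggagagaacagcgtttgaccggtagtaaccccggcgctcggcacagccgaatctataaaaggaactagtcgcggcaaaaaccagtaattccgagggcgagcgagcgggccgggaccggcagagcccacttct
Hmgcs1 and Nsdhl each held CCAAT 4 times, Mvd 2 times, Cyp51 and Insig1 once each, and the Abca1 window did not hold these letters. Hmgcs1 held CACNCCAC with its first base 136 bases before the start site, and Insig1 held it 9 bases before.

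In all, 24 members had 32 windows in the RefSeq table, and Sqle, Fdps, Fdft1, Scd1, Scd2, Abcg1 and Stard4 are named only. CCAAT was in 65.6% of the 32 member windows and in 37.4% of all 32851 windows. GGGCGG, the letters of Sp1 sites, was in 78.1% and 35.7%, and CACGTG in 21.9% and 7.15%. The share of windows with CACNCCAC was 9.38% among members (Hmgcs1, Insig1 and Acat2) and 6.24% among all, and CAGNTG, an E-box that TAL1 and its E protein partners can bind, was in 56.2% and 51.4%. All were searched on both strands, and matches of different motifs shared no bases in a member window. A CAGNTG match can read the same on both strands and was then counted as 1 window with the motif. Some genes had several windows. Those of Scap overlapped, as did some of Dhcr7, and a shared match, such as the CACGTG of Scap, was counted in each. These shares describe letters and not binding.

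The 18 enzymes from acetyl-CoA to cholesterol were summed to give the level of the route in each library. Their summed level was 509.7, 612.3 and 494.5 CPM in the mice labelled TAL1, against 328.5, 315.9 and 370.1 CPM in empty-vector mice. It was 1032.0, 741.0 and 770.7 CPM in the mice labelled TAL1 with AKT(E17K), against 548.3, 951.8 and 537.7 CPM in AKT(E17K) mice. The groups without AKT(E17K) did not overlap, and those with it did, since AKT(E17K) mouse m122 lay among the mice labelled TAL1 with AKT(E17K). In ProT cells the sum was 644.2, 578.5 and 630.9 CPM at 0 h, 942.3, 766.4 and 761.8 CPM at 6 h, 634.0, 581.6 and 579.3 CPM at 12 h, 736.8, 674.3 and 680.8 CPM at 18 h and 641.0, 668.5 and 652.3 CPM at 24 h. All 6 h libraries were above every library of the other times, and the first 6 h library was the highest. This sum is a description without a test.

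**Figure D1:**
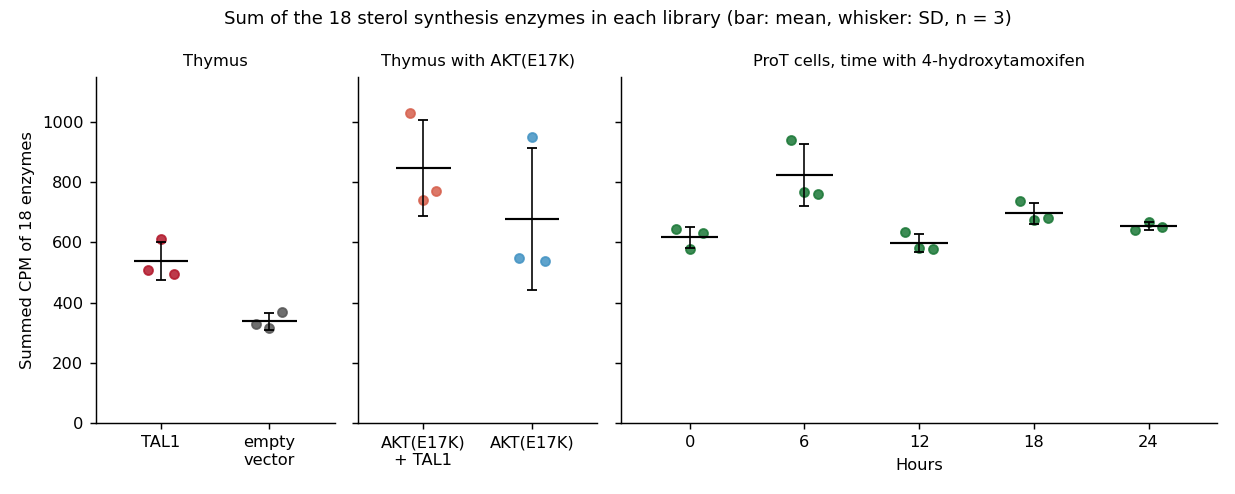
Summed level (CPM, vertical axis from 0) of the 18 sterol synthesis enzymes in each of the 27 libraries, with the mean and SD of each group of 3. The 3 mice labelled TAL1 lie at 494.5 to 612.3 CPM, above the empty-vector mice at 315.9 to 370.1 CPM, and ProT cells peak at 6 h.

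Per kilobase of exon, Scd2 was the highest member in the thymus and Hmgcs1 or Acat2 in ProT cells. Scd2 averaged 48.7 ± 5.77 CPM per kb in the mice labelled TAL1, 39.7 ± 4.42 in empty-vector mice, 44.4 ± 2.39 in the mice labelled TAL1 with AKT(E17K) and 38.3 ± 9.05 in AKT(E17K) mice (SD, n = 3 each). Hmgcs1 came next in the mice labelled TAL1 at 31.8 ± 6.43 CPM per kb, and Acat2 next in AKT(E17K) mice at 26.6 ± 3.37, close to Hmgcs1 at 26.0 ± 19.7 there. In ProT cells Hmgcs1 averaged 46.8 ± 8.95 CPM per kb at 6 h and 31.4 ± 2.13 at 0 h. Acat2 averaged 37.4 ± 3.69 CPM per kb at 6 h and 33.6 ± 4.81 at 0 h, and the libraries of these neighbours overlapped at both times. By this measure Lss, which closes squalene epoxide into lanosterol, was the lowest of the 18 enzymes in all 9 groups. Its means ranged from 0.884 CPM per kb in empty-vector mice to 1.80 CPM per kb in ProT cells at 6 h. This rank depends on the exon length used, which for Lss was the longest of the 18 enzymes, at 10787 bases. In CPM alone Lss was the lowest of the 18 enzymes in no group. By mean CPM, Mvk was lower than Lss at every ProT time. Tm7sf2 was lower in both thymus groups without AKT(E17K), and Idi1 in both groups with it. Scd1 and Abca1 were close to absent in ProT cells, at most 0.614 and 1.57 CPM in any library, and failed the filter on low counts there, as Scd1 did in the table without AKT(E17K) and Abca1 in the table with it.

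In the mice labelled TAL1 the sterol synthesis genes Hmgcs1 and Cyp51 were higher and the exporters Abca1 and Abcg1 lower than in empty-vector mice. Thus 2 of the 30 members tested were called higher and 2 lower by edgeR's quasi-likelihood test at an adjusted p of 0.05, where 2.16% of all 12357 genes tested were called higher and 2.88% lower. The move was broad in direction: 27 of the 30 had a log2 fold change above 0, with a median of 0.44 against -0.0035 over all genes. At an unadjusted p under 0.05, 15 members were higher, against 8.79% of all genes, and 2 lower, against 8.80%. In 12 members all 3 mice labelled TAL1 lay above all 3 empty-vector mice, which held for 11.7% of all genes.

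Among the mevalonate steps all 7 had a log2 fold change above 0, with a median of 0.79. Hmgcs1 (chr13:119690379-119708260, GRCm38), the synthase that makes HMG-CoA, was at 125, 179.8 and 134 CPM in the mice labelled TAL1, against 71.2, 65.9 and 78.3 CPM in empty-vector mice. Its lowest TAL1 mouse was well above its highest empty-vector mouse, and its log2 fold change was 1.02 ± 0.15 (SE, edgeR adjusted p = 0.00195). Idi1, the isomerase that acts on isopentenyl diphosphate, had the largest log2 fold change of the members, 1.42 ± 0.39, from 12.3, 17.3 and 15.01 CPM in the mice labelled TAL1 and 5.49, 2.32 and 8.63 CPM in empty-vector mice, and just missed the threshold (edgeR adjusted p = 0.0566). The groups did not overlap, but the empty-vector mice were spread widely at a low level. DESeq2 called Idi1 (adjusted p = 0.0215).

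Fdps, Mvd and Acat2 were the other mevalonate genes whose groups did not overlap, and none passed the threshold. Fdps, which makes farnesyl diphosphate, was at 17.4, 16.2 and 16.8 CPM in the mice labelled TAL1, against 10.98, 8.75 and 8.63 CPM in empty-vector mice (log2 fold change 0.82 ± 0.25, edgeR adjusted p = 0.0779). Mvd, the decarboxylase that yields the first isoprene unit, was at 15.01, 18.7 and 15.6 CPM, against 10.3, 9.77 and 8.42 CPM in empty-vector mice (adjusted p = 0.1005 by edgeR). Acat2, the thiolase at the head of the route, had a log2 fold change of 0.70 ± 0.20 (edgeR adjusted p = 0.0722), while the mevalonate kinases Mvk (0.54) and Pmvk (0.14) overlapped between groups.

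From squalene to cholesterol, 11 of 11 enzymes had a log2 fold change above 0 and 1 was called. Cyp51 (chr5:4081145-4104746), the demethylase that acts on lanosterol, was at 39.3, 57.5 and 34.4 CPM in the mice labelled TAL1, against 22.1, 16.5 and 19.4 CPM in empty-vector mice. No mouse of one group reached the other, and the log2 fold change was 1.17 ± 0.23 (edgeR adjusted p = 0.00945). Without empty-vector mouse M312 the adjusted p by edgeR was 0.0565, at a log2 fold change of 1.07. Fdft1, the squalene synthase, had a log2 fold change of 0.996 ± 0.39 from 10.4, 11.8 and 9.35 CPM in the mice labelled TAL1 and 4.66, 2.83 and 8.21 CPM in empty-vector mice, and Sqle, the squalene epoxidase, one of 0.63 ± 0.27. Among the late enzymes the methyl oxidase Msmo1, the desaturase Sc5d and the reductase Dhcr7 had separate groups and log2 fold changes of 0.48, 0.51 and 0.42, and Lss, Nsdhl, Hsd17b7, Ebp and Tm7sf2 ranged from 0.10 to 0.47 with overlapping groups.

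None of the 5 regulators was called, and their median was 0.21. Srebf2, the SREBP that chiefly drives sterol genes, was at 102, 120.6 and 123.7 CPM in the mice labelled TAL1, against 107, 59.9 and 76.6 CPM in empty-vector mice, and the groups overlapped through mouse M311 (log2 fold change 0.50 ± 0.18, edgeR adjusted p = 0.141). Without empty-vector mouse M311 it was called higher by edgeR (0.76, adjusted p = 0.0087). Insig1, itself an SREBP target, had 9.15, 11.4 and 11.5 CPM in the mice labelled TAL1, against 6.32, 5.402 and 7.79 CPM in empty-vector mice, with no overlap and an edgeR adjusted p of 0.255. Srebf1, Scap, Insig2 and Stard4, a protein that carries sterol between membranes, had log2 fold changes of 0.21, 0.02, -0.13 and 0.05.

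No fatty acid gene was called in the same mice, and the median of the 4 tested was 0.25. Scd2, a desaturase that puts the double bond into stearate, was at 253, 302 and 243 CPM in the mice labelled TAL1, against 192, 241 and 218 CPM in empty-vector mice, just separate, with a log2 fold change of 0.29 ± 0.12 (edgeR adjusted p = 0.192). Acaca, which makes malonyl-CoA, had a log2 fold change of 0.66 ± 0.30 with overlapping groups. Fasn, the fatty acid synthase, and Acly, which supplies cytosolic acetyl-CoA, had 0.21 and 0.12. Whether the sterol and fatty acid genes differed was not tested.

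Both exporters fell. Abca1 (chr4:53030787-53159895), which loads cholesterol onto apolipoprotein, was at 10.01, 4.399 and 5.75 CPM in the mice labelled TAL1, against 43.9, 33.7 and 34.1 CPM in empty-vector mice. The highest mouse labelled TAL1 was far below the lowest empty-vector mouse, and the log2 fold change was -2.48 ± 0.29 (edgeR adjusted p = 0.000664), with the call kept under all 10 alternatives. Abcg1 (chr17:31057675-31117988), a second exporter that LXR switches on, was at 72.8, 74.1 and 78.8 CPM, against 103, 120.1 and 123.5 CPM in empty-vector mice. Again no mouse overlapped, and the log2 fold change was -0.62 ± 0.12 (edgeR adjusted p = 0.00874, and 0.0523 without empty-vector mouse M315).

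**Figure D2:**
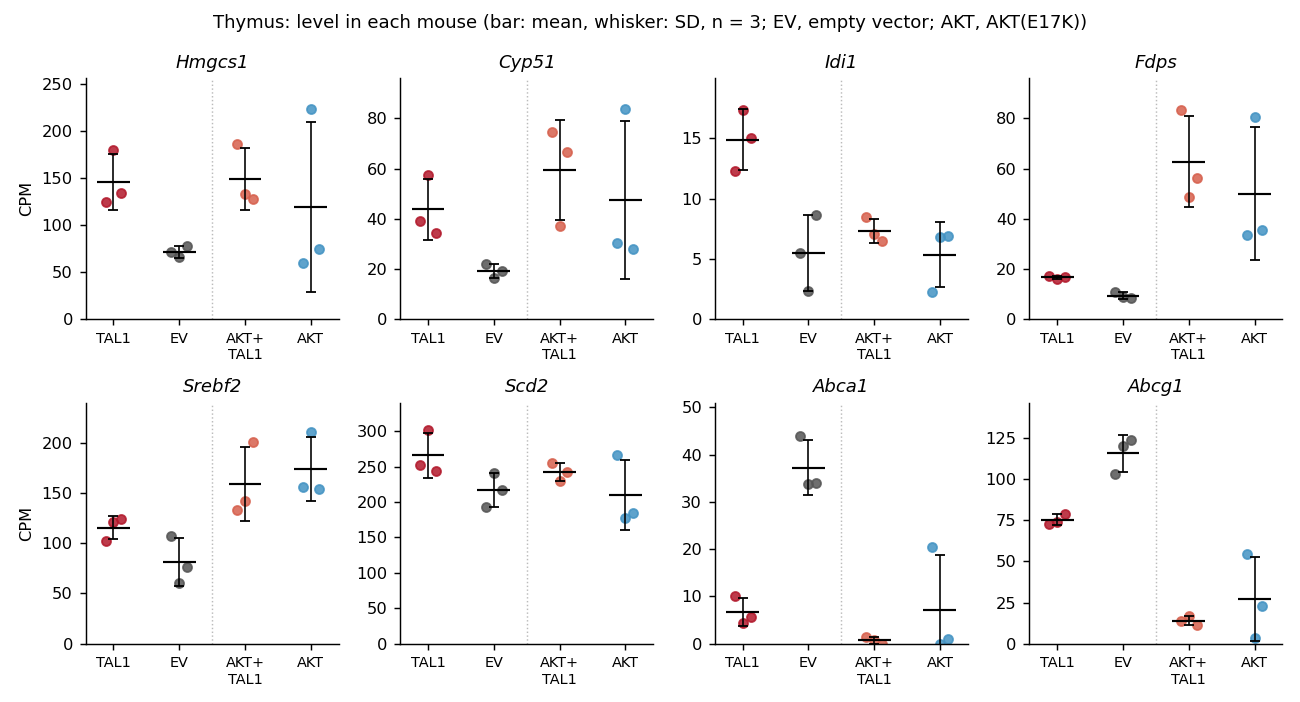
Level (CPM, vertical axes from 0) of 8 genes in each of the 12 thymus libraries, with the mean and SD of each group of 3. Hmgcs1, Cyp51, Idi1 and Fdps are higher and Abca1 and Abcg1 lower in every mouse labelled TAL1 than in every empty-vector mouse, while the groups with AKT(E17K) overlap, with Abca1 at 20.5 CPM in 1 AKT(E17K) mouse.

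Of the other genes of these pathways, few were called in this comparison. None of 12 other sterol and isoprenoid genes tested and none of 11 SREBP processing genes passed, with medians of 0.055 and -0.031. Among 16 other lipid synthesis genes tested, Acsl3, an acyl-CoA synthetase, rose (0.80 ± 0.16, edgeR adjusted p = 0.0103). Among 7 other LXR genes tested, Mylip, an LXR target that marks lipoprotein receptors for breakdown, fell (-0.76 ± 0.18, edgeR adjusted p = 0.0293), at 41.3, 36.7 and 57.6 CPM in the mice labelled TAL1 and 68.4, 71.3 and 91.7 CPM in empty-vector mice. A list of 12 genes for AKT and mTORC1 components was also tested, which held Pdk1, a pyruvate dehydrogenase kinase, as well. Of these 12, 1 was called, Pik3cd, a PI3-kinase subunit, which fell (-1.17 ± 0.10, edgeR adjusted p = 0.000219). Over all genes tested, 2.16% were called higher and 2.88% lower.

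Cell type markers moved with these genes. Of 16 markers of dividing cells, 12 were called higher, with a summed level of 4428 to 5315 CPM in the mice labelled TAL1, against 2853 to 3002 CPM in empty-vector mice. Of 7 markers of mature T cells, 6 were called lower, at 250.2 to 389.5 CPM against 812.4 to 858.4 CPM, and all 7 were detected in every mouse of both groups. Thymocyte markers summed to 16760 to 18380 CPM against 12690 to 15270 CPM, with 3 of 14 called higher. Thymic epithelium markers (79.4 to 89.4 against 59.7 to 68.7 CPM) and endothelium markers (103.5 to 109.8 against 144.0 to 188.1 CPM) also separated the groups. In bulk tissue fewer cells of a type and less RNA per cell cannot be told apart, and the part of these shifts in the sterol and exporter results was not tested. Mouse M318, labelled TAL1, also had myeloid markers at 374.9 CPM against 13.3 to 34.5 CPM in the other mice of both groups, and had the highest Hmgcs1 and Cyp51. Without it Hmgcs1 and Cyp51 kept their calls, with log2 fold changes of 0.84 and 0.92, and Abca1 and Abcg1 had -2.27 and -0.61.

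With AKT(E17K) present, the TAL1 label went with no called member. Of 30 members tested none was called in either direction by edgeR, where 0% of 9782 genes were called higher and 0% lower, and DESeq2 also called no member although it called 66 genes. At an unadjusted p under 0.05, 2 members were higher, Mvd and Msmo1, and none lower, against 3.28% and 3.97% of all genes. All 7 mevalonate genes and all 8 late enzymes had a log2 fold change above 0, and 21 of 30 members did, with a median of 0.22 against -0.015 over all genes. Below 0 were 2 of 3 enzymes from squalene to lanosterol, Fdft1 (-0.25) and Sqle (-0.16), and 3 of 5 regulators, Srebf1, Srebf2 and Scap. So were 2 of 5 fatty acid genes, Stard4 and Abcg1. Mvd, Msmo1 and the sterol reductase Tm7sf2 had groups that did not overlap, 3 of 30 members, which held for 6.18% of all genes in the same direction. Marker sums also separated these groups. Early T precursor markers were at 1048 to 2613 CPM in the mice labelled TAL1 with AKT(E17K), against 643 to 862 CPM in AKT(E17K) mice, mature T cell markers at 47.5 to 94.97 against 18.4 to 39.4 CPM, and thymic epithelium markers at 8.47 to 16.3 against 26.2 to 74.6 CPM. None of these 3 lists had a gene called by edgeR, with 3, 3 and 2 genes at an unadjusted p under 0.05. B cell markers separated the groups too, at 0.466 to 7.75 against 12.6 to 24.3 CPM, but none of their genes passed the filter on low counts. The part of all these markers in the members' direction was not tested. Il7r is on both the early T precursor and the mature T cell list, so the sums and counts of these lists are not fully separate.

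Mvd was at 55.98, 34.2 and 35.9 CPM in the mice labelled TAL1 with AKT(E17K), against 19.5, 30.6 and 23.7 CPM in AKT(E17K) mice (log2 fold change 0.78 ± 0.31, edgeR adjusted p = 0.673). Msmo1, the methylsterol oxidase, was at 54.6, 47.3 and 39.1 CPM, against 21.8, 38.5 and 25.5 CPM in AKT(E17K) mice (0.73 ± 0.30, adjusted p = 0.676 by edgeR). The groups only just missed each other in both genes. Hmgcs1, at 187, 134 and 128 CPM in the mice labelled TAL1 with AKT(E17K) and 59.6, 223 and 74.8 CPM in AKT(E17K) mice, shows the spread: mouse m122 alone was above all 3 mice of the other group, and the log2 fold change was 0.34 ± 0.45. Mouse m122 was also the highest AKT(E17K) mouse for Cyp51, Sqle, Fdps and Fdft1, and had the most dividing-cell markers of its group (6452 CPM against 4731 and 4963 CPM).

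The exporters and Scd1 were high in AKT(E17K) mouse m121, the mouse with adipocyte, fibroblast and myeloid markers. Abcg1 was at 13.7, 16.6 and 11.2 CPM in the mice labelled TAL1 with AKT(E17K), against 54.1, 3.69 and 22.9 CPM in AKT(E17K) mice, and Abca1 at 1.41, 0.706 and 0 CPM against 20.5, 0 and 1.03 CPM. Scd1, a desaturase of fat and liver, was at 18.3, 8.12 and 10.3 CPM, against 50.3, 14.7 and 7.97 CPM in AKT(E17K) mice. In each gene mouse m121 was the highest of the 6, and for Abcg1 the other AKT(E17K) mice lay on either side of the other group. The part of those markers in these levels was not tested.

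The TAL1 effects with and without AKT(E17K) were compared directly in 1 fit over all 12 mice, each effect within its own table. None of the 31 members differed by edgeR, where 0.164% of 10947 genes were called higher and 0% lower, none had an unadjusted p under 0.05, and DESeq2 called none. The median difference was -0.21, and the largest for a sterol enzyme was in Fdft1, -1.21 ± 0.61 (edgeR adjusted p = 0.486). For Hmgcs1 it was -0.65 ± 0.53 and for Cyp51 -0.79 ± 0.55 (SE). With SEs of this size, a p that missed the threshold does not show that the effects were alike.

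**Figure D3:**
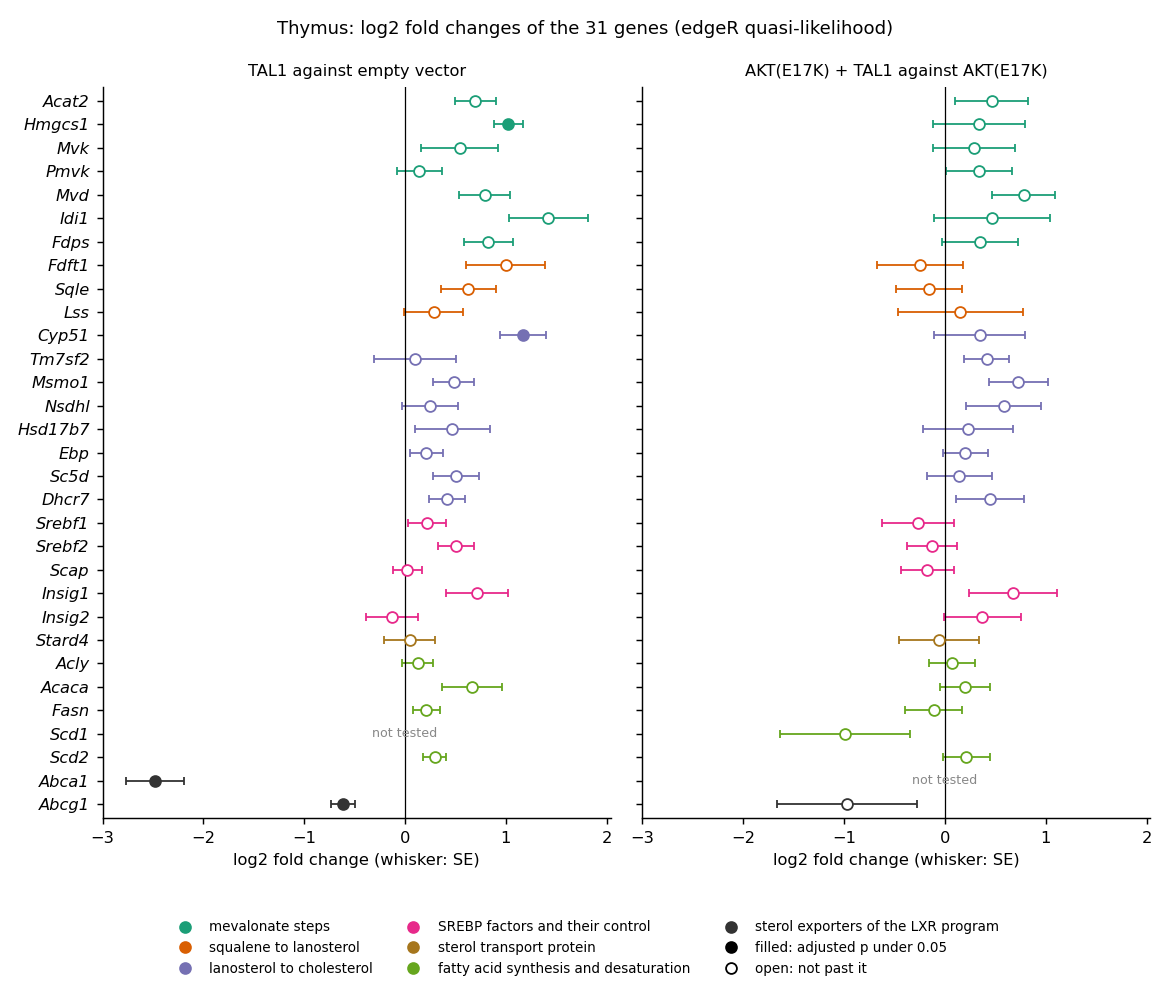
Log2 fold change (horizontal axis, whiskers SE) of each of the 31 genes in the mice labelled TAL1 against empty-vector mice (left) and with AKT(E17K) present (right), by role. On the left 27 of 30 tested genes lie above 0 and both exporters below, and on the right no gene passes the threshold.

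In ProT cells sterol genes were higher at 6 h than at 0 h in direction, though no gene passed the adjusted threshold. None of the 29 members tested was called by edgeR or DESeq2, where 0% of 13610 genes were called higher and 0% lower. By direction 25 of 29 had a log2 fold change above 0, with a median of 0.41 against 0.0011 over all genes. At an unadjusted p under 0.05, 15 members were higher, against 2.60% of all genes, and 1, Abcg1, was lower, against 2.79%. In 9 members all 6 h libraries lay above all 0 h libraries, which held for 4.75% of all genes.

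Msmo1 had the smallest adjusted p of the members, with 72.3, 71.3 and 79.7 CPM at 6 h, against 49.4, 50.2 and 51.4 CPM at 0 h (log2 fold change 0.56 ± 0.11, edgeR adjusted p = 0.196). Hmgcs1 was at 262, 199 and 184 CPM at 6 h, against 148, 133 and 151 CPM at 0 h (0.58 ± 0.12, edgeR adjusted p = 0.511). Neither gene had a 6 h library within its 0 h range. Mvd, Dhcr7, the reductase of the last steps, and Srebf2 had log2 fold changes of 0.67 ± 0.19, 0.54 ± 0.15 and 0.59 ± 0.19, also without overlap, and Sqle, Lss, Sc5d and Insig1 completed the 9. Idi1 (-0.02), Srebf1 (-0.01) and Insig2 (-0.18) were not above 0. Without the first 6 h library the members' median was 0.25. Markers of dividing cells had a median of 0.053 at 6 h. That 0 of 16 were called does not show that division was unchanged, since no gene at all was called here.

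Between 6 h and 12 h most sterol genes fell and Abcg1 rose. Of 29 members tested 11 were called lower, against 5.31% of all genes, and 1 higher, against 5.54%, and the median was -0.35 against -0.0025 over all genes. The 11 were Hmgcs1, Mvk, Mvd, Idi1 and Fdps of the mevalonate steps, Fdft1 and Lss, Msmo1, Nsdhl and Dhcr7 of the late steps, and Srebf2. In 11 members all 12 h libraries were below all 6 h libraries, which held for 12.1% of all genes. These were not the same 11. Sc5d, Srebf1 and Insig1 were separate without a call, and Idi1, Fdft1 and Srebf2 were called with overlapping libraries. The late enzyme Ebp went the other way without a call. It was at 13.9 to 15.2 CPM per kb at 12 h, above every 6 h library at 11.7 to 13.6 CPM per kb. The 12 h against 6 h and 6 h against 0 h comparisons share the 6 h libraries.

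Dhcr7 (chr7:143823145-143848410) had the smallest adjusted p, at 24.7, 21.5 and 18.1 CPM at 0 h, 32.1, 26.5 and 32.7 CPM at 6 h and 16.3, 17.4 and 18.6 CPM at 12 h (12 h against 6 h -0.81 ± 0.14, edgeR adjusted p = 0.000445). Hmgcs1 was at 159, 128 and 128 CPM at 12 h, below every 6 h library (-0.64 ± 0.12, edgeR adjusted p = 0.00105), and Mvd at 12.5, 15.8 and 10.04 CPM (-0.94 ± 0.18, edgeR adjusted p = 0.00121). In these 3 genes the 12 h libraries were back near or below the 0 h level. Nsdhl (chrX:72918557-72958514), a sterol dehydrogenase on the X chromosome, fell most, to 14.2, 11.6 and 10.7 CPM at 12 h, against 34.5, 22.3 and 20.5 CPM at 6 h (-1.09 ± 0.21, edgeR adjusted p = 0.00132). All 12 h libraries of Nsdhl were below its 6 h libraries.

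Fdps was at 23.7, 34.6 and 23.8 CPM at 12 h, against 52.6, 48.1 and 36.3 CPM at 6 h (-0.74 ± 0.15, edgeR adjusted p = 0.001996). Msmo1 was at 52.99, 56.6 and 56.8 CPM at 12 h, against 72.3, 71.3 and 79.7 CPM at 6 h (-0.42 ± 0.10, adjusted p = 0.007095 by edgeR). Neither gene overlapped between these times, and Msmo1 at 12 h remained above its 0 h libraries. Srebf2 was at 67.2, 42.99 and 30.3 CPM at 12 h, against 82.9, 63.4 and 75.2 CPM at 6 h (-0.65 ± 0.18, edgeR adjusted p = 0.0184), and its groups overlapped through the first 12 h library. Mvk, the mevalonate kinase, was at 6.097, 5.66 and 7.58 CPM at 12 h, against 16.7, 9.22 and 9.79 CPM at 6 h (-0.93 ± 0.26, edgeR adjusted p = 0.02004), with 1 high 6 h library. Lss was at 14.8, 12.8 and 12.1 CPM at 12 h, against 21.8, 17.8 and 18.7 CPM at 6 h, without overlap (-0.55 ± 0.16, edgeR adjusted p = 0.0289).

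Fdft1 and Idi1 fell with overlapping libraries. Fdft1 was at 13.5, 11.2 and 13.9 CPM at 12 h, against 22.1, 22.3 and 13.8 CPM at 6 h (-0.60 ± 0.19, edgeR adjusted p = 0.0409), and Idi1 had a log2 fold change of -0.64 ± 0.20 (edgeR adjusted p = 0.0339). The count of members called lower was 6 without the second 12 h library, 7 without the first 6 h library, and 6 when libraries were scaled by total alone. Hmgcs1, Mvd, Fdps, Nsdhl and Dhcr7 kept their calls under all 11 alternatives. Abcg1 was at 16.1, 12.2 and 19.5 CPM at 12 h, against 9.36, 6.07 and 6.45 CPM at 6 h, with no overlap (1.08 ± 0.22, edgeR adjusted p = 0.00147, kept under all 11). Sqle, Stard4, Scap, Tm7sf2 and Scd2 stayed within 0.02 of 0 on the log2 scale.

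Other measures moved over the same interval. Of 16 markers of dividing cells 8 were called higher at 12 h than at 6 h and none lower, with summed levels of 2150 to 2436 CPM at 12 h and 1593 to 2036 CPM at 6 h. Most sterol genes and the division markers thus went in opposite directions here and in the same direction in the thymus. Early T precursor markers (4 of 6 called higher, 1 lower) summed to 1504 to 1751 CPM at 12 h and 742.5 to 1102 CPM at 6 h. Their part in the sterol result was not tested.

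**Figure D4:**
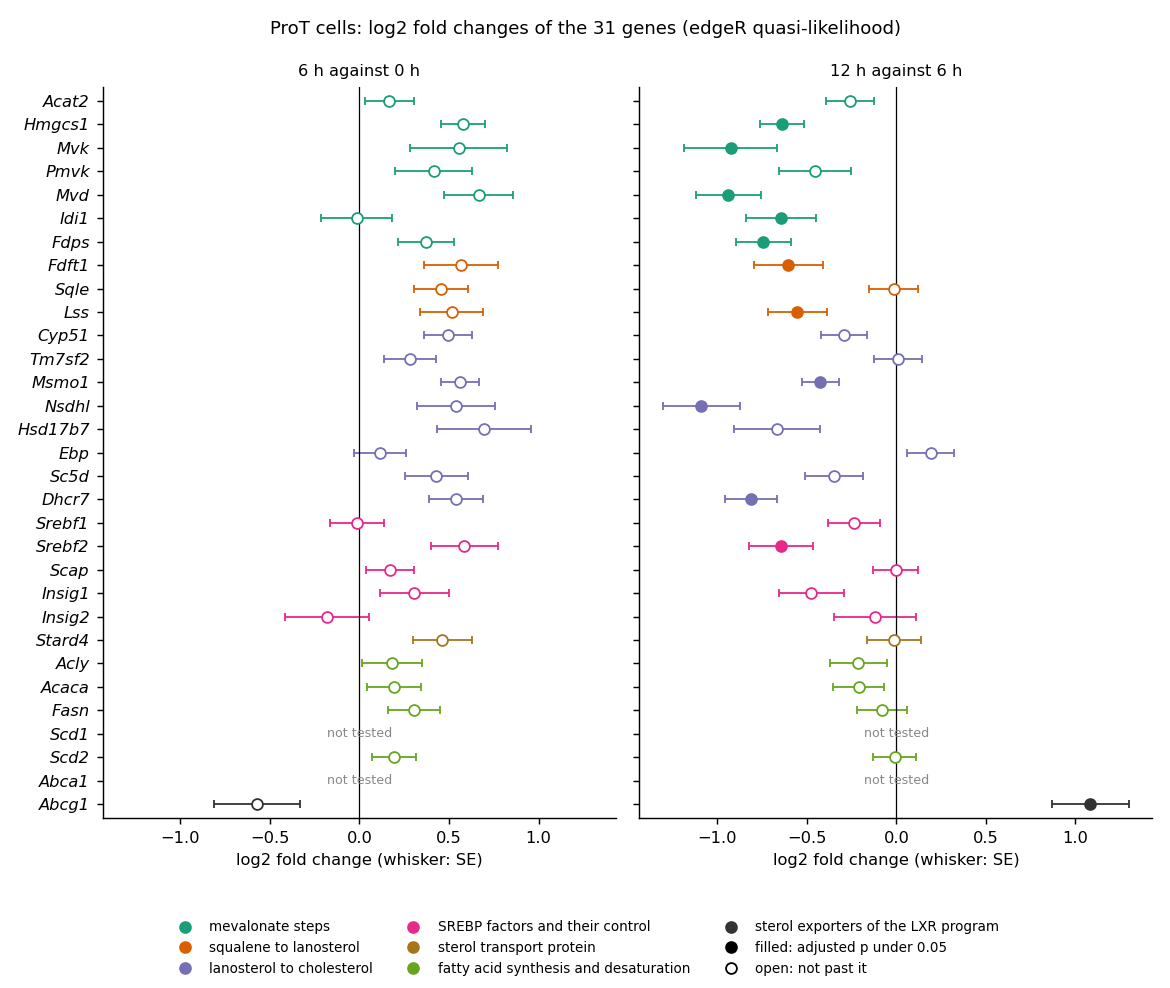
Log2 fold change (horizontal axis, whiskers SE) of the 31 genes in ProT cells at 6 h against 0 h (left) and 12 h against 6 h (right), by role. Most sterol genes lie above 0 on the left, where none passes the threshold, and below 0 on the right, where 11 do, while Abcg1 lies on the other side in both.

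At later times the members parted. Against 0 h, 1 member was called higher and 1 lower at 12 h (6.33% and 5.69% of all genes), 5 higher and 1 lower at 18 h (4.89% and 3.92%), and 4 higher and 1 lower at 24 h (9.43% and 9.30%), so these counts were near the background except for the 5 higher at 18 h. These comparisons share the 0 h libraries. At 24 h Mvd, Fdps, Lss, Srebf1 and Insig2 had every library below every 0 h library, without a call. Hmgcs1, Cyp51, Msmo1 and Scap had every library above, also without a call. The share of all genes so separated at 24 h was not counted. Between 24 h and 12 h no member was called by edgeR or DESeq2, with 2 at an unadjusted p under 0.05, where 0.0367% of genes were called higher and 0.154% lower. Over all 5 times 12 members changed, against 18.0% of genes: Hmgcs1, Mvd, Idi1, Fdps, Sqle, Lss, Cyp51, Msmo1, Nsdhl, Dhcr7, Stard4 and Abcg1.

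Idi1 was lower from 12 h on. It was at 54.8, 51.9 and 48.9 CPM at 0 h, 59.1, 36.9 and 56.3 CPM at 6 h, 30.1, 22.9 and 46.3 CPM at 12 h, 40.7, 28.6 and 28.2 CPM at 18 h and 31.6, 29.9 and 19.7 CPM at 24 h. From 12 h on every library was below every 0 h library, and the log2 fold change at 24 h was -0.91 ± 0.21 (edgeR adjusted p = 0.00279, kept under all 11 alternatives). The calls of Idi1 at 12 h and 18 h (-0.66 and -0.67, adjusted p = 0.0328 and 0.0413 by edgeR) were each lost under 6 of 11 alternatives, including each of the 3 that left out a 0 h library.

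Sqle was above 0 h at every later time, as was Msmo1 without overlap, and Stard4 was so from 12 h on. Sqle was at 25.1, 23.8 and 24.7 CPM at 0 h, 38.2, 31.5 and 30.7 CPM at 6 h, 36.6, 26.6 and 37.1 CPM at 12 h, 37.5, 34.8 and 39.5 CPM at 18 h and 30.8, 33.8 and 37.8 CPM at 24 h, and every later library was above every 0 h library. It was called at 12 h (0.44), 18 h (0.61) and 24 h (0.47), with edgeR adjusted p = 0.0499, 0.0111 and 0.0263. Stard4 was at 25.5, 20.97 and 31.5 CPM at 0 h, 46.6, 42.2 and 42.95 CPM at 18 h and 38.2, 42.2 and 33.3 CPM at 24 h, and rose at 18 h (0.73 ± 0.16, edgeR adjusted p = 0.00468) and 24 h (0.53 ± 0.16, adjusted p = 0.0219 by edgeR). All 5 of these calls were lost without the second 0 h library, with edgeR adjusted p = 0.0558 for Sqle and 0.0543 for Stard4 at 18 h.

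Hmgcs1, Cyp51 and Msmo1 were called higher at 18 h. Msmo1 was at 72.9, 71.3 and 72.3 CPM at 18 h, against 49.4, 50.2 and 51.4 CPM at 0 h, with libraries of each time close together (0.52 ± 0.11, edgeR adjusted p = 0.00299, kept under all 11 alternatives). Hmgcs1 was at 211, 201 and 181 CPM at 18 h (0.45 ± 0.13, edgeR adjusted p = 0.0231) and Cyp51 at 67.6, 62.4 and 64.5 CPM, against 46.9, 39.7 and 51.6 CPM at 0 h (0.49 ± 0.13, adjusted p = 0.0223 by edgeR). Both lost the call without the first or the second 0 h library or the first 18 h library, and Hmgcs1 also without the second 18 h library, with edgeR adjusted p up to 0.122 for Hmgcs1 and 0.142 for Cyp51.

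At 24 h the sterol isomerase Ebp and Fasn were also higher. Ebp was at 31.1, 39.5 and 43.5 CPM at 24 h, against 24.7, 26.9 and 28.4 CPM at 0 h (0.49 ± 0.14, edgeR adjusted p = 0.0135). Fasn was at 95.8, 94.5 and 87.03 CPM at 24 h, against 65.7, 58.95 and 73.2 CPM at 0 h (0.48 ± 0.14, adjusted p = 0.0184 by edgeR). Neither gene overlapped between the times. At that time 12 of 16 markers of dividing cells were also called higher, and their part in this was not tested. Without the first 0 h library or without the second 24 h library no member was called higher at 24 h.

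**Figure D5:**
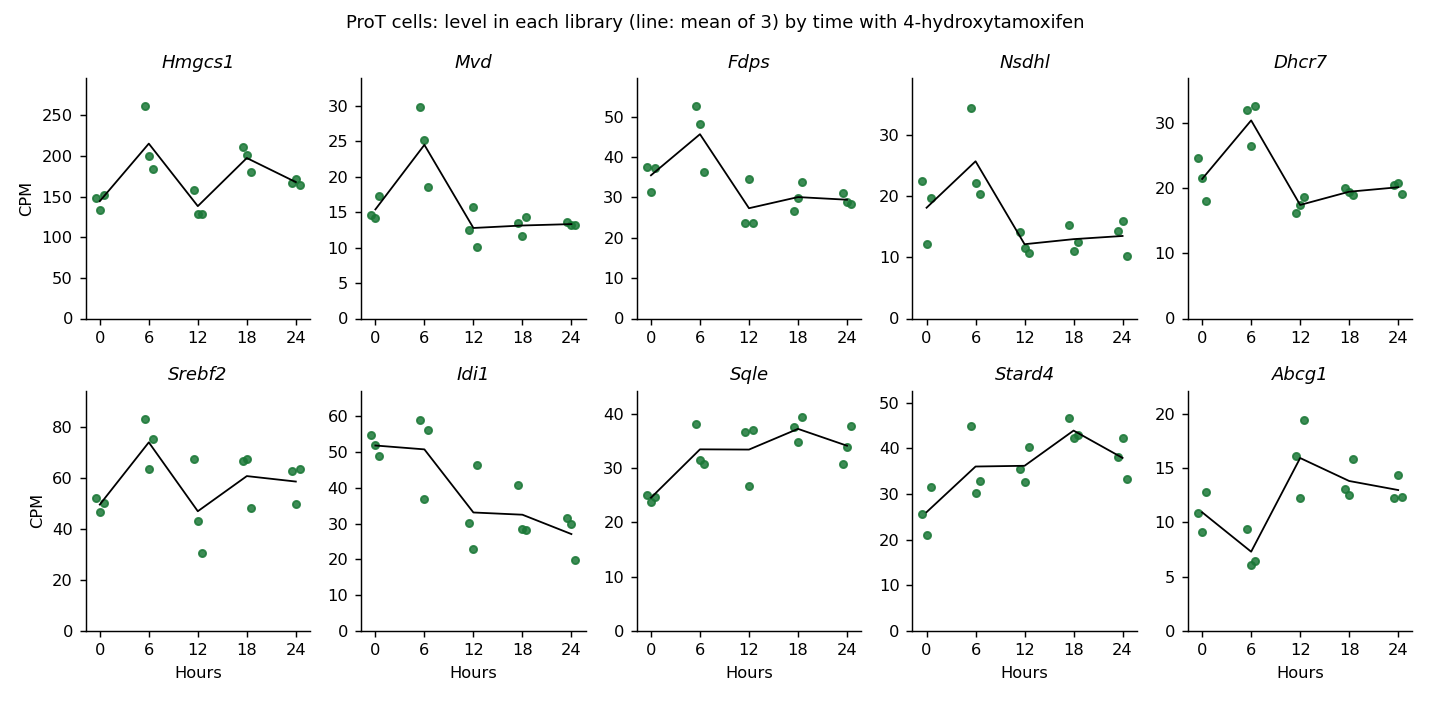
Level (CPM, vertical axes from 0) of 10 genes in each ProT library against hours of 4-hydroxytamoxifen, with a line through the means of 3. Hmgcs1, Mvd, Fdps, Nsdhl, Dhcr7 and Srebf2 peak at 6 h, Idi1 stays low from 12 h, Sqle stays above every 0 h library, and Abcg1 is lowest at 6 h.

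Of the other listed genes in ProT cells, Pdk1, the pyruvate dehydrogenase kinase, rose at 12 h and 18 h (0.87 and 0.81, edgeR adjusted p = 3.77e-05 and 0.000199). It fell between 12 h and 24 h (-0.73, adjusted p = 0.00163 by edgeR). Soat1, which esterifies cholesterol, fell at 18 h and 24 h (-0.59 and -0.81, edgeR adjusted p = 0.0245 and 0.001095), Hsd17b12, a fatty acid elongation enzyme, fell at 12 h and 18 h (-0.50 and -0.70), and Pcyt2, of phosphatidylethanolamine synthesis, fell at 12 h and 24 h (-0.53 and -0.55). Elovl5, a fatty acid elongase, rose and Lpcat3, an LXR target, fell at 12 h (0.46 and -0.42), and Acsl3 rose at 18 h (0.47). At 24 h Npc2, a lysosomal sterol carrier, and Akt1 rose (0.35 and 0.39) and Mylip fell (-0.55). Of 6 other LXR genes tested, 1 was called lower at 12 h, at 24 h and at 12 h against 6 h, and none at 18 h. Between 6 h and 12 h, where most sterol enzymes fell, Pdk1, Pgrmc1 and Elovl5 rose (0.78, 0.57 and 0.36) and Pcyt2 and Hsd17b12 fell (-0.71 and -0.47). At 6 h against 0 h 0% of all genes were called. The 12 other sterol, 11 SREBP processing, 18 other lipid and 6 other LXR genes tested had medians of 0.055, 0.0042, 0.14 and 0.036.

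The thymus comparison without AKT(E17K) and the 6 h ProT comparison share no libraries. Of 29 members tested in both, 25 were above 0 in both, and 15 were higher at an unadjusted p under 0.05 in each. The 10 higher in both were Hmgcs1, Mvd, Fdps, Fdft1, Sqle, Cyp51, Msmo1, Sc5d, Dhcr7 and Srebf2, which is 66.7% of each set. Over all 11018 genes tested in both, 27.0% were above 0 in both. At an unadjusted p under 0.05, 49 were higher in both, which is 4.68% of those higher in the thymus and 15.9% of those higher at 6 h. The members were chosen with earlier results of these data known. Their larger shares are therefore a description and not a test of agreement. Abcg1 fell by 0.62 on the log2 scale in the thymus and had a log2 fold change of -0.57 at 6 h in ProT cells, where it was not called (edgeR adjusted p = 0.908). Idi1 parted the systems, with 1.42 in the thymus and -0.02 at 6 h.

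Some levels are uncertain because genes share exons and no source used here gives the strand option of the counting. In GENCODE M21, 26.7% of Fdps exon bases overlap Gm43738 on the same strand, 18.3% of those of Fdft1 overlap Ctsb on the other strand, and 12.1% of those of Tm7sf2 overlap Vps51. Tm7sf2 was at 4.72, 4.95 and 7.37 CPM in the mice labelled TAL1 and 6.65, 4.63 and 4.63 CPM in empty-vector mice, but at 84.5, 72.7 and 83.4 CPM and 66.9, 64.3 and 49.6 CPM in the other thymus table. The tables listed different numbers of genes, so AKT(E17K) and the counting of the table cannot be told apart in this gap.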

How the data were processed

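Messenger RNA was sequenced from 12 mouse thymuses and 15 ProT libraries, from RNA prepared on a Maxwell RSC instrument, per the labels' protocols. Reads were handled with FastQC, HISAT2, SAMtools and HTSeq on mm10/GRCm38, per the submitters' processing notes. Their versions, the annotation and any strand option are not given in the sources used here. The 3 tables that the authors deposited hold raw, whole-number counts of reads assigned to each gene. Summary lines that name no gene were left out. They listed 29.8% to 33.0% no-feature reads in the thymus table without AKT(E17K) and 17.3% to 22.6% in the ProT table.

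Counts were scaled by TMM, filtered with filterByExpr and tested with edgeR 4.0.16 (R 4.3.3) by the two-sided quasi-likelihood test. Benjamini-Hochberg adjustment ran over all genes of each fit, at 0.05. SEs were derived from the fold change and the F statistic. Each thymus table was fitted alone, and all 15 ProT libraries were fitted together. CPM used the total over genes tested times the TMM factor. The code was tested on simulated data. DESeq2 1.42.0, other scalings, no filter, each library left out and a replicate block were tried. All 31 members are accounted for, called ones with values per library, and of the other pathway lists at most the 6 called genes with the smallest adjusted p per comparison are named, except 1 gene that is not reported here. The members and lists were chosen with earlier results of these data known. Positions came from GENCODE M21 (GRCm38) and promoters from RefSeq (GRCm38.p6).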

Additional observations from a re-analysis of the deposited data

How the results depend on the processing

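Of the 29 calls of members, 10 were kept under every alternative run (Hmgcs1 and Abca1 in the thymus without AKT(E17K), Msmo1 at 18 h, Idi1 at 24 h, and Hmgcs1, Mvd, Fdps, Nsdhl, Dhcr7 and Abcg1 at 12 h against 6 h), and 19 were lost under at least 1. No value of a called gene changed sign. In the mice labelled TAL1 against empty vector, members called higher were 2, against 3 with DESeq2, 5 without the filter on low counts and 1 to 3 with a mouse left out, and members called lower were 2, against 1 to 2 with a mouse left out. For 12 h against 0 h the count of members called higher was 1, against 0 with DESeq2, 5 with library size only, 2 without the filter and 0 to 1 with a library left out, and the count lower was 1, against 0 with library size only and 0 to 1 with a library left out. For 18 h against 0 h it was 5 higher (1 to 5 with a library left out) and 1 lower (0 with library size only, 0 to 1 with a library left out). For 24 h against 0 h it was 4 higher (0 to 3 with a library left out), and for 24 h against 12 h 0 higher (0 to 1). For 12 h against 6 h it was 11 lower, against 6 with library size only, 8 with DESeq2, 12 with the replicate block (Hsd17b7 added) and 6 to 11 with a library left out. Library size alone moved the median of all genes to 0.18, 0.13 and 0.17 at 12, 18 and 24 h against 0 h, so its extra calls are to be read against that shift. The members' median stayed between 0.31 and 0.47 in the mice labelled TAL1, 0.11 and 0.34 with AKT(E17K), 0.25 and 0.52 at 6 h, and -0.45 and -0.26 at 12 h against 6 h.

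Counts over all genes moved more: 623 in the mice labelled TAL1 (1107 without the filter, 337 to 403 with a mouse left out), 0 with AKT(E17K) (66 with DESeq2, 30 without the filter, 1 to 8 with a mouse left out) and 18 for the difference (170 with DESeq2, 58 without the filter, 2 to 173 with a mouse left out). In ProT cells they were 1635 at 12 h (819 to 918 with a library left out), 1200 at 18 h (419 to 769), 2549 at 24 h (1447 to 1682), 1477 for 12 h against 6 h (657 to 2434) and 26 for 24 h against 12 h (41 with DESeq2, 10 to 213 with a library left out, and within that range without the filter). Where the cause of a lost call was not in the alternative's own construction, the cause was not tested. Same-numbered ProT libraries did not deviate together (30 pairs, r from -0.143 to 0.213, 1 over 0.1), so numbers were not taken as pairs. The replicate block gave 13 members changing over time against 12, and 12 called lower at 12 h against 6 h in place of 11, and left the other ProT counts of members as they were.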
